A study of Mus musculus with 14 samples.

Results

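Matricellular proteins are secreted proteins that sit in the extracellular matrix and act mainly on how cells attach and signal, more than as load-bearing fibres. The set described here holds 10 genes of this kind and their matrix partners, Postn, Tgfbi, Sparc, Thbs1, Thbs2, Tnc, Spp1, Fn1, Fbn1 and Fbln2. They were chosen by symbol, without regard to case, and all 10 were found among the 55415 rows of each of the 2 deposited count tables. Transcripts were measured in the mouse line TR.1, grown from a lung adenocarcinoma and carrying a fusion of Trim24 to Ret in all groups. Selpercatinib and pralsetinib inhibit the RET kinase, and DMSO is their solvent. The acute experiment had 4 libraries from cells given 100 nM selpercatinib and 4 from cells given 0.1% DMSO, with 1 library of each at days 1, 2, 3 and 5. The resistance experiment had 2 libraries from selpercatinib-resistant cultures (500 nM), 2 from pralsetinib-resistant cultures (labelled 200 and 400 nM) and 2 from parental cultures passaged in 0.1% DMSO for about 60 days. Resistant cultures were started at 30 nM and raised over about 60 days until they grew in 400 to 500 nM, per the labels' protocols, which does not match the 200 nM label. All libraries come from this single cell line, and the labels do not say whether libraries of a group were separately derived cultures. In the resistance experiment p-values therefore speak to library-to-library spread alone, which may be technical. In the acute comparison of the arms that spread also holds any change of the drug difference between days.

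Fibronectin (Fn1) and fibrillin-1 (Fbn1) assemble into fibrils and microfibrils on which the other proteins dock. Thrombospondins (Thbs1, Thbs2), tenascin-C (Tnc), SPARC, osteopontin (Spp1) and the fasciclin-domain proteins periostin (Postn) and TGFBI are typically low in resting tissue and high in wounds, fibrosis and tumour stroma. Many of them bind integrins, and several, Thbs1 and Fbn1 among them, take part in storing or activating latent TGF-beta. In lung tumours they are known from fibroblasts and macrophages as well as from tumour cells.

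Upstream sequence is shown for Postn, which differed most between resistant and parental cultures, for Spp1, which fell most under acute selpercatinib, and for Tnc, whose acute difference changed with time. RefSeq (GRCm38.p6) holds windows for 8 of the 10 genes, and the 250 bases before the annotated start are printed, 5′ to 3′ on the coding strand. Capitals mark matches, on either strand, to an ETS motif (GGAAGT), a RUNX motif (TGTGGT) and an E-box (CAGGTG). The windows are chr3:54360857-54361106 (plus strand) for Postn, chr5:104434861-104435110 (plus strand) for Spp1 and chr4:64047016-64047265 (minus strand) for Tnc.
Postn: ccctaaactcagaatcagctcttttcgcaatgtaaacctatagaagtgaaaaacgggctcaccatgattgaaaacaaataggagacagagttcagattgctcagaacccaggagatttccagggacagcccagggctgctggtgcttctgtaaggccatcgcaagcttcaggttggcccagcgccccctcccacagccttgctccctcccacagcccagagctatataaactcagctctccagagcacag
Spp1: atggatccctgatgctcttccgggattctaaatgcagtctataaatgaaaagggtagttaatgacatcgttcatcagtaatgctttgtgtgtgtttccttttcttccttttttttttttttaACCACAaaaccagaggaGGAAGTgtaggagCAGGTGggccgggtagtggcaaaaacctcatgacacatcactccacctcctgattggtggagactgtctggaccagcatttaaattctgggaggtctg
Tnc: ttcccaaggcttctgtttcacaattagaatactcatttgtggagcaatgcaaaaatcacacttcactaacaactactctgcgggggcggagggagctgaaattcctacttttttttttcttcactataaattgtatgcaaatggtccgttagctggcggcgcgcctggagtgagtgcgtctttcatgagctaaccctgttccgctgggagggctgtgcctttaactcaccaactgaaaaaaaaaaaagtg
Of the 11 windows of the 8 genes, only the Spp1 window above held any of the 6 motifs searched. Its RUNX match ran from base 128 to base 123 before the start, its ETS match from base 111 to 106 and its E-box match from base 98 to 93, and the 3 did not overlap. Across all 32851 windows of this length 19.7% held the ETS motif, 14.0% the RUNX motif and 17.2% the E-box. An AP-1 motif (TGANTCA), found in 6.75% of all windows, a TEAD motif (GGAATG), found in 12.6%, and a CArG box, found in 1.47%, had no match in the 11 windows. These matches describe letters only.

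Libraries held between 60.7 and 89.8 M counts, so 3 counts correspond to 0.0334 to 0.0494 CPM (counts scaled to library size). Intervals and floors cover counting error only. The 2 libraries of each resistance group differed beyond counting error, since chi-square divided by its degrees of freedom came to 13.0 for selpercatinib-resistant, 44.8 for pralsetinib-resistant and 7.02 for parental cultures. The epithelial markers Epcam, Cdh1, Krt8, Krt18, Krt19 and Cldn7 summed to 8879 to 9713 CPM in acute selpercatinib libraries, 5277 to 6962 CPM in acute DMSO, 1133 to 1207 CPM in selpercatinib-resistant, 601 to 1239 CPM in pralsetinib-resistant and 7656 to 7724 CPM in parental libraries. Epcam averaged 0.622 CPM in selpercatinib-resistant and 0.968 CPM in pralsetinib-resistant cultures, against 242 CPM in parental cultures. Of the alveolar type 2 markers, Sftpc, Sftpb and Lamp3 stayed below 1 CPM on average in each group, while Nkx2-1, a transcription factor of lung epithelium, averaged 5.08 CPM in acute selpercatinib, 3.23 CPM in acute DMSO, 7.46 CPM in selpercatinib-resistant and 1.85 CPM in parental libraries, and was at 0.569 and 2.44 CPM in the pralsetinib-resistant libraries. The label of lung adenocarcinoma thus rests here on epithelial markers and low levels of Nkx2-1, and Epcam and Cldn7 averaged below 1 CPM in both resistant groups.

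Together the 10 genes held 1.01 to 1.71% of all counts in acute selpercatinib libraries, 0.751 to 1.22% in acute DMSO, 1.47 to 1.52% in selpercatinib-resistant, 1.04 to 1.19% in pralsetinib-resistant and 1.11 to 1.12% in parental libraries. Compared per exon length (RPKM), Spp1, Fn1 and Fbln2 were the 3 most abundant of the set in acute DMSO and in parental cultures. Spp1 averaged 1704 ± 21.7 RPKM in parental cultures (SD, n = 2), and Fn1 averaged 529.8 ± 0.416 RPKM there. At the other end Postn averaged 0.00633 ± 0.00247 RPKM and Thbs2 0.0653 ± 0.0178 RPKM in the same cultures. The order changed with the inhibitors. Under acute selpercatinib Spp1 dropped to the sixth place of the 10, and in both resistant groups Sparc moved up to the second place, at 529.9 ± 23.9 RPKM in selpercatinib-resistant and 432 ± 48.6 RPKM in pralsetinib-resistant cultures. Using the longest transcript in place of all exons raised RPKM by 1.01 to 1.67 times depending on the gene.

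**Figure D1:**
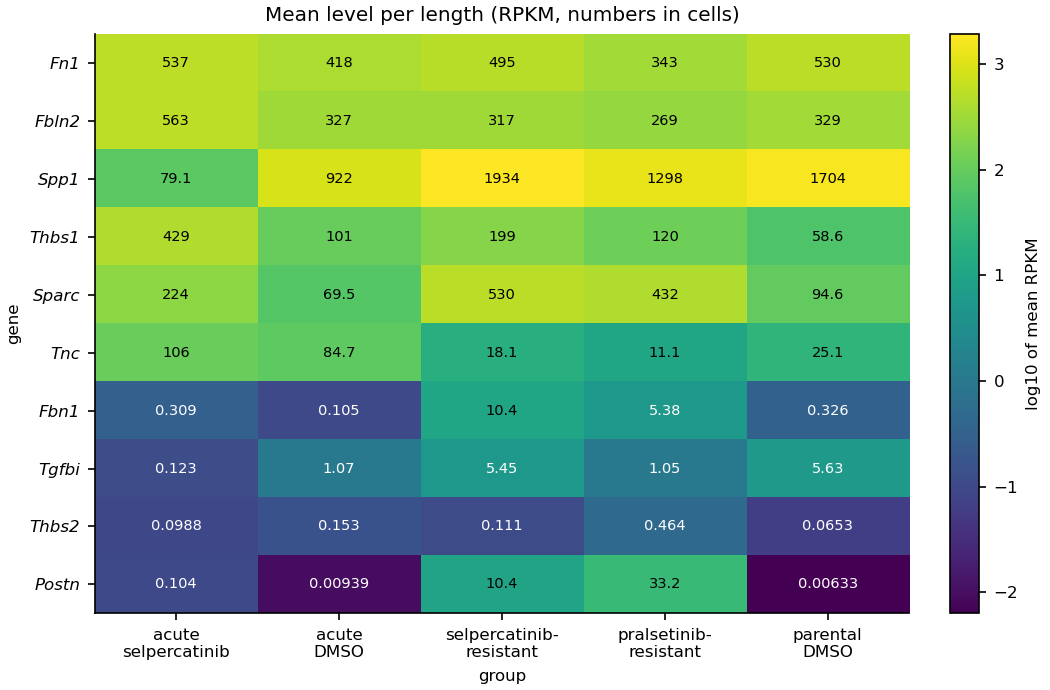
Mean level of each gene per exon length (RPKM, numbers in the cells, colour on a log10 scale) in the 5 groups, n = 4 libraries in each acute group and 2 in each other group. Spp1 has the highest mean in every group except acute selpercatinib, where it is at 79.1 RPKM, and Postn has the lowest in acute DMSO and parental cultures.

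Under acute selpercatinib Thbs1, Sparc, Fbn1, Fbln2 and Fn1 rose and Spp1 and Tgfbi fell. Of the 8 genes that could be tested, 5 were higher and 2 lower, while 53.5% of the 13209 genes tested were called (26.6% higher and 26.9% lower). Postn and Thbs2 were too low for the filter, and Tgfbi passed it through its DMSO libraries alone. The median log2 fold change of the 8 genes was 0.56, against -0.0019 for all genes tested. Since whole cultures were sequenced, fewer expressing cells and less RNA per cell cannot be told apart.

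Thbs1 (ENSMUSG00000040152.8, mm10 chr2:118111876-118127133, plus strand, 22 merged exons), a binding partner of CD36 and CD47 that can activate latent TGF-beta, had 2549.9, 3091, 2599 and 2189.8 CPM at days 1, 2, 3 and 5 in selpercatinib cultures, against 632, 658, 668 and 498 CPM in DMSO cultures. The groups did not overlap, and the ratio on matched days lay between 3.89 and 4.70. The fitted log2 fold change was 2.09 (SE 0.10, adjusted p = 3.61e-05), a 4.24-fold rise. Sparc (ENSMUSG00000018593.13, chr11:55394500-55423183, minus strand), a collagen-binding protein that loosens cell adhesion, had 658, 857, 943 and 935 CPM under selpercatinib, against 248, 308, 278 and 219 CPM under DMSO. Every selpercatinib library lay above every DMSO library, and the log2 fold change was 1.68 (SE 0.13, adjusted p = 1.37e-04). Its ratio was 2.65 at day 1 and 4.26 at day 5.

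Fbn1 (ENSMUSG00000027204.13, chr2:125300594-125507993, minus strand), the main protein of tissue microfibrils, was low in both acute groups. It had 3.74, 4.46, 3.98 and 2.81 CPM under selpercatinib, against 1.75, 1.13, 1.18 and 1.05 CPM under DMSO, with no overlap, and rose by 1.56 on the log2 scale (SE 0.19, adjusted p = 8.74e-04). Fbln2 (ENSMUSG00000064080.12, chr6:91212455-91272540, plus strand), a fibulin that bridges fibronectin, fibrillin and basement membrane proteins, had 2210.5, 3227, 4085 and 4829 CPM under selpercatinib, against 1485, 1802, 2577 and 2478 CPM under DMSO. The groups overlapped over the days, but selpercatinib was higher on each of the 4 days, and the log2 fold change was 0.76 (SE 0.11, adjusted p = 0.00175). Fn1 (ENSMUSG00000026193.15, chr1:71585520-71653200, minus strand), fibronectin, had 4322, 5779.9, 7195 and 7803 CPM under selpercatinib, against 3925, 4043, 5943 and 5622 CPM under DMSO. Its log2 fold change of 0.35 (SE 0.12, adjusted p = 0.0487) was the weakest call. It held in only 2 of 12 alternatives, and without day as a block its adjusted p was 0.241.

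Spp1 (ENSMUSG00000029304.14, chr5:104435118-104441050, plus strand) encodes osteopontin, a secreted ligand of integrins and CD44. It had 115, 132, 161 and 113 CPM under selpercatinib, against 729, 1097, 1854 and 2398 CPM under DMSO. The selpercatinib libraries stayed in a narrow low range while the DMSO libraries climbed with each day. Spp1 fell by 3.41 on the log2 scale (SE 0.29, adjusted p = 1.92e-04), a 10.6-fold difference. Its exons overlap 309 bases of Gm42793 on the same strand, whose own row held at most 138 counts in an acute library. The other overlaps, of Tnc, Fn1, Fbn1 and Thbs1, are with genes on the opposite strand that held at most 184 counts in any library. Tgfbi (ENSMUSG00000035493.10, chr13:56609523-56639562, plus strand), a fasciclin-domain protein named for its induction by TGF-beta, had 60, 38, 27 and 22 counts under selpercatinib, against 147, 223, 383 and 414 counts under DMSO. These correspond to 0.780 CPM at day 1 and 0.271 CPM at day 5 under selpercatinib, against 1.90 and 5.85 CPM under DMSO. The groups did not overlap, and Tgfbi fell by 3.05 on the log2 scale (SE 0.55, adjusted p = 0.00395). They lay further apart on each later day, but that change, -0.82 per day on the log2 scale, was not called (edgeR adjusted p = 0.0626).

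Tnc (ENSMUSG00000028364.15, chr4:63959785-64047015, minus strand), an anti-adhesive protein of wound and tumour matrix, crossed over. It had 461, 652, 847 and 1325 CPM under selpercatinib, against 612, 665.5, 791 and 565 CPM under DMSO, so selpercatinib was lower at day 1 and higher at day 5. The mean difference over the days did not pass the test (log2 fold change 0.21, SE 0.25, adjusted p = 0.496) and was -0.11 without day 5. Postn (ENSMUSG00000027750.16, chr3:54361109-54391037, plus strand), a fasciclin-domain ligand of integrins, had 6, 12, 86 and 196 counts under selpercatinib, against 8, 3, 7 and 6 counts under DMSO. The day 3 and day 5 selpercatinib libraries lay above all others, while the day 1 library lay within the DMSO range. Summed over libraries and scaled, the ratio was 11.5 with a 95% counting interval of 7.57 to 18.2. Without the filter its log2 fold change was 2.91 (SE 0.47, edgeR adjusted p = 2.37e-06), at a peak level of 2.42 CPM. Thbs2 (ENSMUSG00000023885.9, chr17:14665500-14694235, minus strand), the angiogenesis-inhibiting relative of Thbs1, had 0.637, 0.554, 0.726 and 0.851 CPM under selpercatinib, against 0.802, 0.842, 1.02 and 1.61 CPM under DMSO. The groups overlapped, and without the filter its log2 fold change of -0.55 (SE 0.24, edgeR adjusted p = 0.0949) did not pass.

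**Figure D2:**
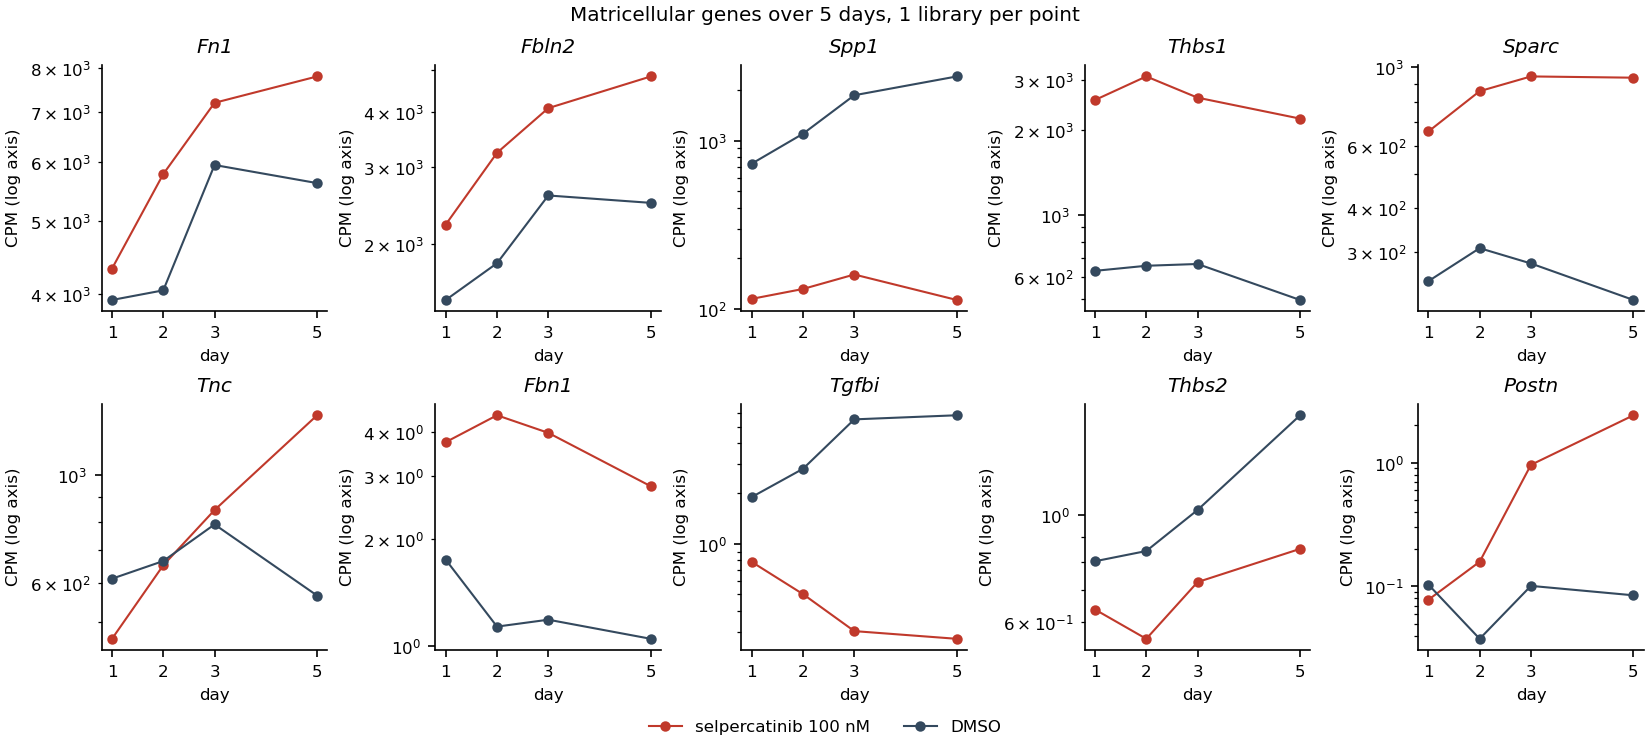
TMM-scaled CPM (log axis, scale differs between panels) of each gene at days 1, 2, 3 and 5 in cells given 100 nM selpercatinib (red) or DMSO (dark blue), 1 library per point. Spp1 climbs to 2398 CPM under DMSO and stays at 113 to 161 CPM under selpercatinib, and the Tnc lines cross between days 2 and 3.

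The acute difference changed with time for Tnc and Spp1. The log2 difference between selpercatinib and DMSO grew by 0.40 per day for Tnc (adjusted p = 0.0231) and moved by -0.44 per day for Spp1 (adjusted p = 0.0116). These were 2 of 8 genes tested, while 2.06% of all genes were called (0.78% higher and 1.28% lower). Without day as a block the adjusted p was 0.0504 for Tnc and 0.108 for Spp1, and neither was called without day 1 (0.0914 and 0.106). For Tnc the call was also lost without day 5 (0.0941). Within the selpercatinib libraries Tnc gained 0.37 and Fbln2 0.27 on the log2 scale per day, the 2 genes of 8 called there, with 13.0% of all genes called (5.18% higher and 7.78% lower). Within DMSO the slopes of Spp1 (0.43 per day) and Tgfbi (0.41 per day) were the 2 called, with 33.8% of all genes called (18.0% higher and 15.9% lower). With 1 library per day, these slopes rest on few points. The Tnc slope was not called without selpercatinib day 1 or day 5, nor the Fbln2 slope without any of the 4 selpercatinib days. Neither DMSO call held without DMSO day 1, and that of Tgfbi was also lost without DMSO day 2. Postn, below the filter, had an unfiltered slope of 1.18 per day under selpercatinib (SE 0.14, edgeR adjusted p = 4.98e-10). This value cannot be ranked against the main fit, since the selpercatinib slope of Fn1 had 1.14e-04 without the filter and 0.0607 with it.

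Selpercatinib-resistant cultures were set against parental cultures to see which differences accompany long-term growth in the inhibitor. Postn, Fbn1, Sparc and Thbs1 were higher and Tnc lower, 5 of 10 genes called, while 69.6% of the 14389 genes tested were called (35.2% higher and 34.4% lower). The median log2 fold change of the 10 genes was 0.45, against -0.00049 over all genes tested. Postn and Thbs2 passed the filter through the resistant libraries alone. Postn had 4446 and 8903 counts (66.8 and 113 CPM) in selpercatinib-resistant cultures, against 4 and 3 counts (0.0703 and 0.0399 CPM) in parental cultures. The scaled ratio of the sums was 1738, with a 95% counting interval of 843 to 4323, and the fitted log2 fold change was 10.68 (SE 0.93, adjusted p = 3.57e-05). Fbn1 had 124 and 128 CPM in selpercatinib-resistant cultures, against 4.08 and 3.83 CPM in parental cultures, a 32.0-fold rise (log2 fold change 5.00, SE 0.21, adjusted p = 9.27e-07).

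Sparc reached 2071 and 1943 CPM in selpercatinib-resistant cultures, against 356 and 361 CPM in parental cultures (log2 fold change 2.49, SE 0.09, adjusted p = 4.31e-07). Thbs1 had 1309.5 and 1102 CPM, against 364 and 348 CPM in parental cultures (log2 fold change 1.76, SE 0.09, adjusted p = 2.87e-06). For these 4 genes the resistant libraries lay far above the parental ones. Tnc had 143 and 138 CPM in selpercatinib-resistant cultures, against 187 and 204 CPM in parental cultures, and fell by 0.47 on the log2 scale (SE 0.11, adjusted p = 0.00582), a call lost without parental replicate 2 (0.0536). Spp1 had 3003 and 3373 CPM, against 2783 and 2834 CPM in parental cultures, and its log2 fold change of 0.18 (SE 0.08, adjusted p = 0.0760) missed the threshold, with adjusted p between 0.00122 and 0.376 over the alternatives. Fn1 (log2 fold change -0.10, SE 0.11), Fbln2 (-0.06, SE 0.10) and Tgfbi (-0.05, SE 0.13) did not pass, and the 3 turned positive when only library totals were used for scaling. Thbs2, at 1.08 and 0.472 CPM against 0.369 and 0.545 CPM in parental cultures, overlapped and did not pass (log2 fold change 0.72, SE 0.42, adjusted p = 0.162).

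In pralsetinib-resistant cultures all 10 genes differed from parental cultures, 5 higher and 5 lower, while 70.3% of all genes tested were called (35.8% higher and 34.6% lower). The median log2 fold change was 0.37, against 0.0062 over all genes tested. Postn and Thbs2, counted as higher, lay below 1 CPM in both parental libraries and passed the filter through resistant libraries alone. They could hardly have been called lower, and the count of higher genes and the median include them. Postn had 149.8 CPM in the 200 nM library and 427 CPM in the 400 nM library, with 10619 and 30819 counts, against 4 and 3 counts in parental cultures. The scaled ratio of the sums was 5470, with a 95% counting interval of 2655 to 13606, and the log2 fold change was 12.36 (SE 0.92, adjusted p = 1.45e-05). The 400 nM library held 2.85 times the Postn level of the 200 nM library, the widest gap of the 10 genes within that pair. Fbn1 had 78.8 and 51.6 CPM in these pralsetinib-resistant cultures, against 4.08 and 3.83 CPM in parental cultures (log2 fold change 4.05, SE 0.21, adjusted p = 2.18e-06).

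Sparc had 1767 and 1506 CPM in pralsetinib-resistant cultures, against 356 and 361 CPM in parental cultures (log2 fold change 2.19, SE 0.09, adjusted p = 7.09e-07). Thbs1 had 758 and 698 CPM, against 364 and 348 CPM in parental cultures (log2 fold change 1.03, SE 0.09, adjusted p = 3.86e-05). Thbs2 had 240 and 224 counts (3.38 and 3.11 CPM) in pralsetinib-resistant cultures, against 21 and 41 counts (0.369 and 0.545 CPM) in parental cultures, a 6.98-fold rise (log2 fold change 2.80, SE 0.39, adjusted p = 4.17e-04). It remained a low transcript. Tgfbi had 4.49 and 3.40 CPM in pralsetinib-resistant cultures, against 21.2 CPM in each parental culture, and fell by 2.43 on the log2 scale (SE 0.15, adjusted p = 4.96e-06). Tnc had 96.0 and 76.1 CPM, against 187 and 204 CPM in parental cultures, and fell by 1.18 (SE 0.11, adjusted p = 4.84e-05). None of these genes had overlapping libraries, but with 2 libraries a group this happens easily, and the share over all genes was not counted.

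Smaller falls were seen for Fn1, Spp1 and Fbln2. Fn1 had 4510.2 and 3495 CPM in pralsetinib-resistant cultures, against 6187 and 6194 CPM in parental cultures (log2 fold change -0.63, SE 0.11, adjusted p = 0.00164). Spp1 had 2258 and 2020.8 CPM, against 2783 and 2834 CPM in parental cultures (log2 fold change -0.39, SE 0.08, adjusted p = 0.00319). Fbln2 had 1905 and 1518 CPM, against 2061 and 2134 CPM in parental cultures (log2 fold change -0.29, SE 0.10, adjusted p = 0.0325). The Fbln2 call was lost when only library totals were used (adjusted p = 0.255), without parental replicate 1 (0.0861), without parental replicate 2 (0.134) and with the 4 libraries alone (0.0557). Both resistant comparisons share the parental libraries.

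**Figure D3:**
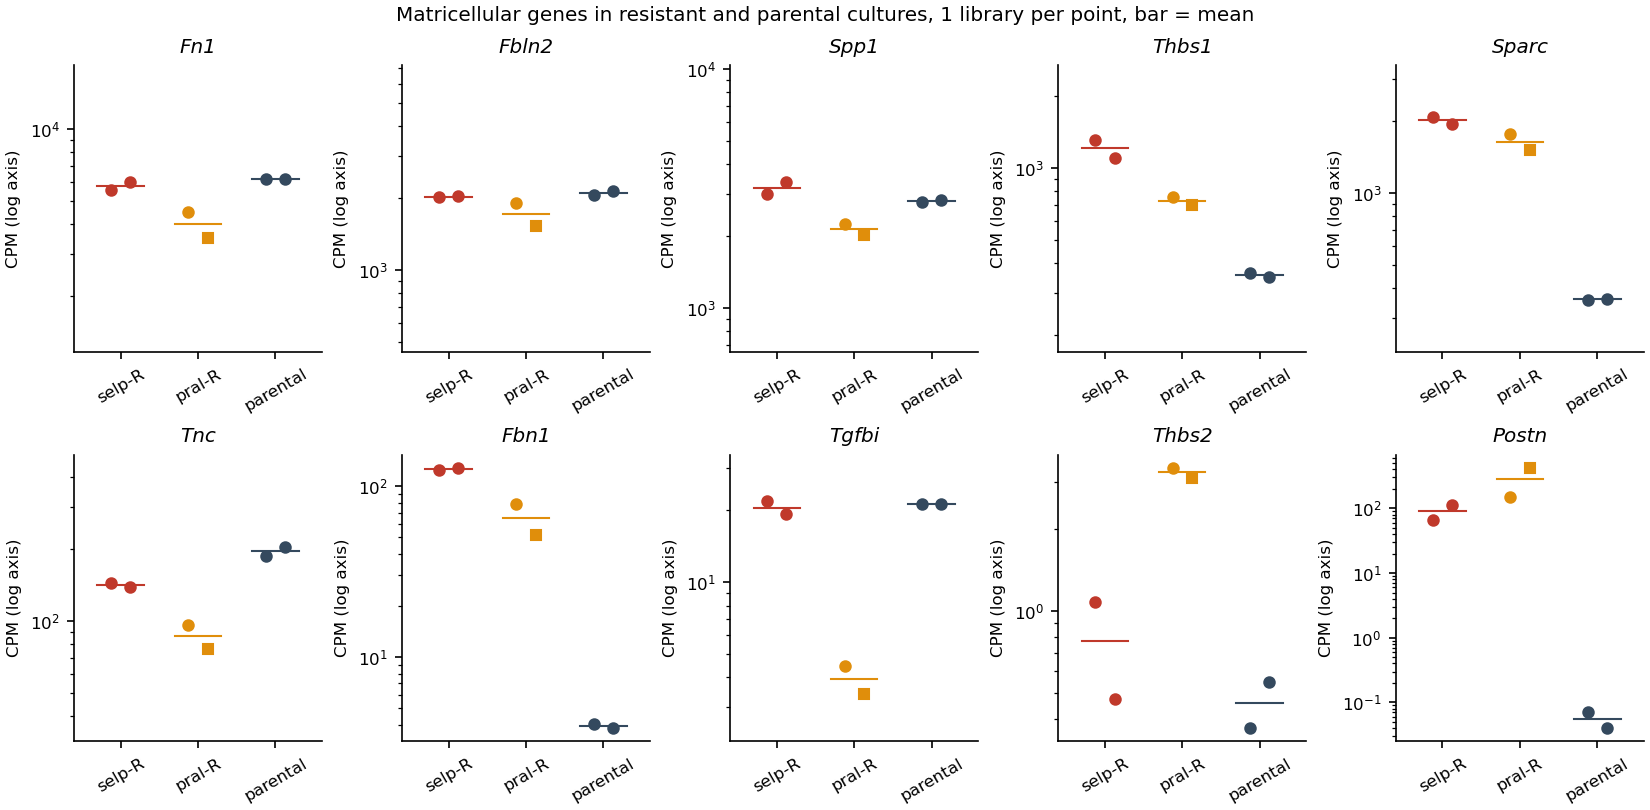
TMM-scaled CPM (log axis, scale differs between panels) of each gene in selpercatinib-resistant (selp-R), pralsetinib-resistant (pral-R, circle 200 nM and square 400 nM) and parental cultures, 1 library per point with the group mean as a bar. Postn lies at 66.8 to 427 CPM in resistant libraries and below 0.1 CPM in parental libraries, and Tgfbi lies at 3.40 to 4.49 CPM in pral-R and at 19.3 to 21.8 CPM in the other 4 libraries.

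Most markers of fibroblasts were higher in the resistant groups, though Pdgfra was lower in pralsetinib-resistant than in parental cultures. Col1a1, Col1a2, Col3a1, Dcn, Lum, Pdgfra and Pdgfrb summed to 1660 to 1910 CPM in selpercatinib-resistant and 734 to 1158 CPM in pralsetinib-resistant libraries, against 10.2 to 10.9 CPM in parental libraries. Of the 7 markers, 6 averaged at least 1 CPM in each resistant group and 2 did so in parental cultures. Lum averaged 0.134 CPM in selpercatinib-resistant and 0.0698 CPM in pralsetinib-resistant cultures, against 0.00879 CPM in parental cultures. Pdgfra averaged 3.95 CPM in selpercatinib-resistant and 1.87 CPM in pralsetinib-resistant cultures, against 2.56 CPM in parental cultures. Col1a1 made up most of the sums, at 1336 CPM in selpercatinib-resistant and 517 CPM in pralsetinib-resistant cultures, against 7.81 CPM in parental cultures. Over the same libraries the epithelial sum was lower in the resistant groups, as given above. The part of these markers in the rise of Postn, Fbn1 and Sparc was not tested. The leukocyte markers Ptprc, Adgre1, Csf1r, Itgam, Cd68 and Lyz2 summed to 5.79 to 6.13 CPM in selpercatinib-resistant and 5.71 to 6.19 CPM in pralsetinib-resistant libraries, against 9.52 to 10.2 CPM in parental libraries, and Adgre1 had no count in any library. In the acute table the fibroblast sum was 8.40 to 18.0 CPM under selpercatinib and 4.90 to 8.02 CPM under DMSO. Endothelial markers summed to at most 3.68 CPM in any library.

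Selpercatinib-resistant and pralsetinib-resistant cultures were also compared with each other, although their doses differ (500 nM against 200 and 400 nM). Tgfbi, Fbn1, Thbs1, Tnc, Spp1 and Fn1 were higher and Thbs2 was lower in selpercatinib-resistant cultures, 7 of 10 genes, while 10.6% of all genes tested were called (6.46% higher and 4.13% lower). Tgfbi had 21.8 and 19.3 CPM in selpercatinib-resistant cultures, against 4.49 and 3.40 CPM in pralsetinib-resistant cultures (log2 fold change 2.38, SE 0.15, adjusted p = 0.00152). That call held under all 12 alternatives. Thbs2 had 1.08 and 0.472 CPM, against 3.38 and 3.11 CPM in pralsetinib-resistant cultures (log2 fold change -2.08, SE 0.37, adjusted p = 0.0164). Only the pralsetinib-resistant group held Thbs2 at 1 CPM or more in both libraries, so the filter favoured this direction. Fbn1, Thbs1, Tnc, Spp1 and Fn1 differed by 0.53 to 0.95 on the log2 scale. Postn was lower in each selpercatinib-resistant library than in each pralsetinib-resistant library, but its log2 fold change of -1.68 (SE 0.45, adjusted p = 0.0572) missed the threshold, as did Sparc (0.29, SE 0.08, adjusted p = 0.0675) and Fbln2 (0.24, SE 0.10, adjusted p = 0.179). The calls depend on single libraries. Without selpercatinib-resistant replicate 1 a single gene stayed called, without replicate 2 there were 2, and leaving out any of the 4 libraries gave 1 to 10.

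**Figure D4:**
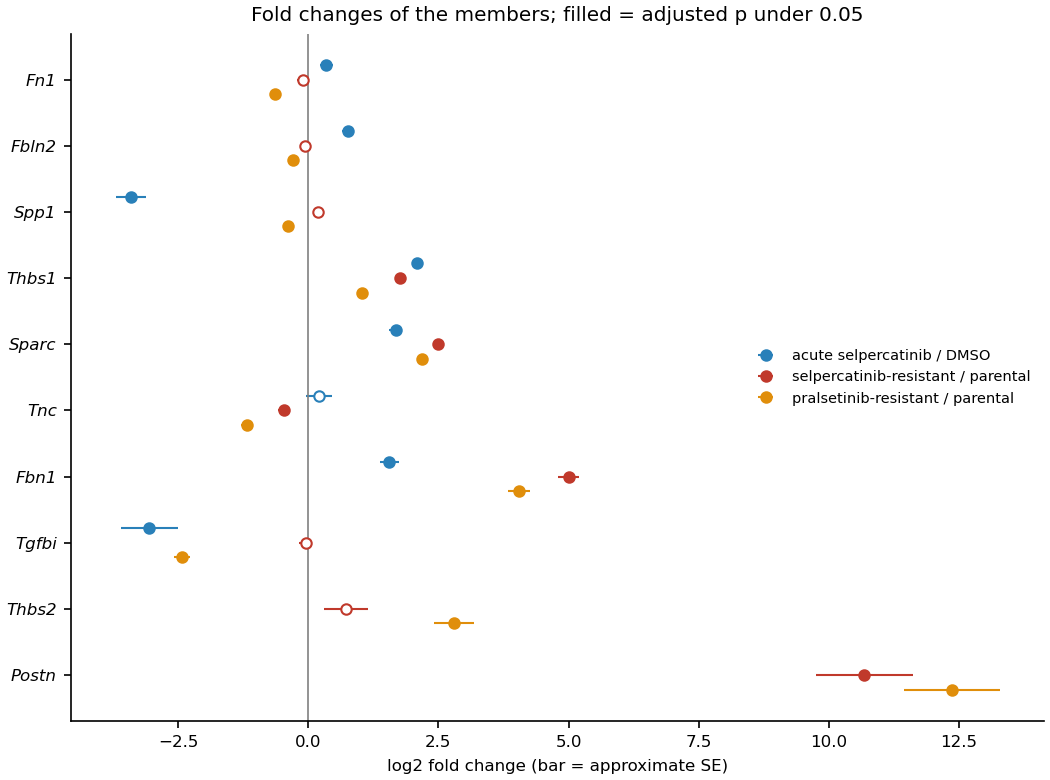
Log2 fold changes (horizontal axis, bars are approximate SE) of each gene for acute selpercatinib over DMSO (blue), selpercatinib-resistant over parental (red) and pralsetinib-resistant over parental (orange). Filled points passed an edgeR adjusted p of 0.05, and Postn and Thbs2 have no acute point because they failed the filter. Sparc, Thbs1 and Fbn1 are to the right of 0 in all 3 comparisons, and Spp1 lies at -3.41 for acute treatment.

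Set side by side, the genes followed different courses. Thbs1, Sparc and Fbn1 were called higher acutely and in both resistant groups. Of these, Thbs1 had its larger log2 fold change under acute treatment (2.09, against 1.76 and 1.03 in selpercatinib-resistant and pralsetinib-resistant cultures), whereas Fbn1 had 1.56 acutely and 5.00 and 4.05 in the resistant groups. Spp1 was at -3.41 under acute selpercatinib and at 0.18 in selpercatinib-resistant and -0.39 in pralsetinib-resistant cultures. Tgfbi fell acutely and in pralsetinib-resistant cultures, with a log2 fold change of -0.05 in selpercatinib-resistant cultures. These differences between the 2 tables were not tested, since the tables were fitted apart. The reference groups also differed in level. Tgfbi averaged 4.02 CPM in acute DMSO and 21.2 CPM in parental cultures, and Spp1 averaged 1520 CPM in acute DMSO and 2808 CPM in parental cultures.

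A wider list of 26 matricellular and related glycoproteins was read in the same fits. Of the 13 glycoproteins tested acutely, 8 were higher and 2 lower (53.5% of all genes called), with a median log2 fold change of 1.48. Of the 16 tested in the resistance fit, 13 were higher and 3 lower in selpercatinib-resistant cultures (median 1.85, 69.6% of all genes called), and 12 were higher and 3 lower in pralsetinib-resistant cultures (median 1.44, 70.3% of all genes called). Of those higher, 2 acutely and 5 in each resistant comparison lay below 1 CPM in every DMSO or parental library, so they passed the filter through libraries where they were high. Smoc2, lower in both resistant comparisons, lay below 1 CPM in every resistant library and passed through the parental ones. These counts and medians describe only the genes that passed. Ccn4 (Wisp1), a secreted CCN protein of the Wnt response, averaged 111 ± 30.1 CPM under acute selpercatinib and 4.72 ± 1.35 CPM under DMSO (SD, n = 4 each), a log2 fold change of 4.55 (adjusted p = 1.15e-05). It was also higher in selpercatinib-resistant (3.85) and pralsetinib-resistant cultures (4.01). Fstl1, a follistatin-like glycoprotein of the SPARC family, averaged 609 ± 59.3 CPM in selpercatinib-resistant and 414 ± 31.3 CPM in pralsetinib-resistant cultures, against 1.23 ± 0.0789 CPM in parental cultures (n = 2 each). Fbln5, an elastic fibre protein, behaved otherwise. It averaged 27.3 ± 26.4 CPM under acute selpercatinib and 0.729 ± 0.488 CPM under DMSO, but stayed at 0.848 ± 0.116 CPM in selpercatinib-resistant, 0.876 ± 0.297 CPM in pralsetinib-resistant and 0.668 ± 0.0242 CPM in parental cultures. Ccn2 (CTGF), a CCN protein tied to fibrosis, rose acutely (log2 fold change 1.94) and fell by 1.44 in selpercatinib-resistant and by 0.94 in pralsetinib-resistant cultures.

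Among 15 receptors for these proteins, 6 of the 12 tested acutely were higher and 2 lower (median 0.46), beside 53.5% of all genes called. In selpercatinib-resistant cultures 7 of 14 were higher and 2 lower (median 0.27), beside 69.6% of all genes, and in pralsetinib-resistant cultures 6 were higher and 6 lower (median -0.24), beside 70.3%. Itga4, Itga9 and Cd36, counted as higher in both, lay below 1 CPM in both parental libraries and passed the filter through the resistant ones. Itgb6, the beta chain of an epithelial integrin that binds fibronectin, tenascin-C and latent TGF-beta, averaged 134 ± 12.6 CPM under acute selpercatinib and 18.0 ± 2.42 CPM under DMSO (log2 fold change 2.90, adjusted p = 1.15e-05). In the resistance table it averaged 5.78 ± 0.819 CPM in selpercatinib-resistant and 3.82 ± 1.04 CPM in pralsetinib-resistant cultures, against 12.2 ± 1.12 CPM in parental cultures. Itga9, the alpha chain of a tenascin-C and osteopontin receptor, was at 34.7 ± 2.83 CPM in selpercatinib-resistant and 23.6 ± 7.75 CPM in pralsetinib-resistant cultures, against 0.236 ± 0.0606 CPM in parental cultures. Cd36, a receptor of thrombospondin-1, averaged 8.15 ± 1.99 CPM in selpercatinib-resistant and 51.1 ± 30.3 CPM in pralsetinib-resistant cultures, against 0.106 ± 0.00061 CPM in parental cultures. The osteopontin and hyaluronan receptor Cd44 fell in all 3 comparisons, by 0.91 acutely, by 0.67 in selpercatinib-resistant and by 1.03 in pralsetinib-resistant cultures on the log2 scale.

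Of 13 microfibril genes, the partners of Fbn1, 6 were tested acutely, with 2 higher and none lower (median 0.13), a share below the 53.5% of all genes. Of 8 tested in the resistance fit, 5 were higher and 2 lower in selpercatinib-resistant (median 0.72, beside 69.6% of all genes called) and 4 higher and 3 lower in pralsetinib-resistant cultures (median 0.13, beside 70.3%). Among those higher in both, Fbn2, Mfap2 and Emilin1 lay below 1 CPM in both parental libraries and passed the filter through the resistant ones. Ltbp2, a microfibril-associated protein, averaged 169.9 ± 27.7 CPM under acute selpercatinib and 38.0 ± 3.74 CPM under DMSO (log2 fold change 2.15). Fbn2, the second fibrillin, averaged 8.15 ± 0.0320 CPM in selpercatinib-resistant and 3.29 ± 1.37 CPM in pralsetinib-resistant cultures, against 0.108 ± 0.0212 CPM in parental cultures. Mfap2, a small microfibril component, averaged 3.62 ± 0.558 CPM in selpercatinib-resistant and 2.55 ± 0.624 CPM in pralsetinib-resistant cultures, against 0.141 ± 0.0258 CPM in parental cultures. Of 11 genes of the TGF-beta pathway, 10 were tested acutely, with 5 higher and 1 lower (median 0.25), a share near the 53.5% of all genes. In the resistance fit 6 were higher and 5 lower in selpercatinib-resistant (median 0.65, beside 69.6% of all genes called), and 6 higher and 4 lower in pralsetinib-resistant cultures (median 0.42, beside 70.3%). The ligand Tgfb2 averaged 124 ± 27.6 CPM under acute selpercatinib and 2.43 ± 0.526 CPM under DMSO, and its log2 fold change was 5.66 acutely, 6.31 in selpercatinib-resistant and 6.64 in pralsetinib-resistant cultures. The ligand Tgfb1 fell in the same comparisons, by 0.45, 0.74 and 1.10. The feedback inhibitor Pmepa1 was not called acutely (log2 fold change 0.27) and fell by 1.84 on the log2 scale in selpercatinib-resistant and by 1.43 in pralsetinib-resistant cultures. These counts describe the lists, some genes of which stand in more than 1 list, and all medians stand beside a median within 0.01 of 0 for all genes tested.

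The genes most like each member were sought, except for Postn and Thbs2, which failed the acute filter. They were taken from 972 genes of adequate level and spread. The measure was the mean of the Pearson correlations of log2(CPM + 1) within the 8 acute and within the 6 resistance libraries. Closest to Sparc was Edn1 (endothelin-1), with a mean of 0.99, followed by Spon2, a matrix protein of the spondin family, also at 0.99. Lrp2, an endocytic receptor, was closest to Thbs1 and to Fbn1, at 0.98 each. Snai2, a transcription factor of the Snail family, was closest to Tgfbi at 0.98, and Hif1a was closest to Spp1 at 0.96. Tnc had the loosest partner, Txnip, at 0.82. For Fn1 the nearest was Nfe2l3 (0.86) and for Fbln2 it was Sphk1 (0.87). The points share libraries, group and day, so these values are a description and carry no p.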

How the data were processed

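Stranded polyA RNA libraries of TR.1 cells were sequenced, per the labels' protocols. Per the submitters' processing notes, FastQC, STAR, edgeR and the mm10 build were used, without versions. The names of the deposited tables say CPM, but the authors' columns hold whole numbers with differing totals, so they were taken as counts per gene. How reads were assigned to genes, with which annotation and strand setting, is not given in the sources used here.

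Genes with at least 1 CPM in at least 4 acute or 2 resistance libraries were tested (13209 and 14389 genes). The main test was edgeR's quasi-likelihood test (edgeR 4.0.16, R 4.3.3, TMM scaling), two-sided, with Benjamini-Hochberg adjustment over all genes tested and a threshold of 0.05. Standard errors are approximate, from the log2 fold change and its F statistic. CPM values are TMM-scaled. RPKM divides them by the union of exons in GENCODE M21 (mm10), which matched 55391 of 55415 rows. The other 24 rows carry 5-digit numbers as names, hold at most 0.215% of a library's counts and were kept in library sizes. The tables were analysed apart. Counting intervals are exact at the 95% level.

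The acute fit had day as a block, since the labels give the day as the batch, with a selpercatinib and a DMSO library in each. Deviations of same-day libraries correlated at 0.521 to 0.673 over 10510 genes, while different days reached 0.613. The resistance fit took 3 groups of 2 libraries. Alternatives were other scalings and filters, DESeq2 1.42.0, limma 3.58.1 on log2(CPM + 1), other blocks and leaving out each library or day in turn. All genes of the set are named. From each related list up to 4 called genes with the lowest p per comparison could be named. The genes and lists were chosen with earlier results of these data known. Python 3.11.15 and matplotlib 3.10.9 drew the figures. Proteins were not analysed.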

Additional observations from a re-analysis of the deposited data

Results flagged for a closer look

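For 2 genes the difference between selpercatinib and DMSO cultures changed over the days by a test of that change in edgeR. The log2 difference of Tnc changed by 0.40 per day (adjusted p = 0.0231), with 461 CPM under selpercatinib and 612 CPM under DMSO at day 1, and 1325 CPM under selpercatinib and 565 CPM under DMSO at day 5. That of Spp1 changed by -0.44 per day (adjusted p = 0.0116), with 115 CPM under selpercatinib and 729 CPM under DMSO at day 1, and 113 CPM under selpercatinib and 2398 CPM under DMSO at day 5. Each day has 1 library of each arm, and neither call held without day 1 or without day as a block. No single library stood apart by Dixon's test in any of the 20 groups of 4 values tested, where chance would flag about 1 group in 20. Each group held the 4 days of 1 acute arm, which are not replicates and carry time trends. With 4 values a flag needs a ratio above 0.829, so the lack of a flag says little. The resistance libraries were not tested in this way.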

How the results depend on the processing

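Thbs1, Sparc, Fbn1, Fbln2, Spp1 and Tgfbi kept their acute call and direction in every alternative that could test them, except that Fbln2, at 1.69-fold, is lost at a 2-fold threshold, which left 5 genes of the set called. The calls of Postn, Fbn1, Sparc and Thbs1 in both comparisons with parental cultures held in each alternative. Over all genes of the set and alternatives, 638 values kept direction and side of the threshold, 41 newly passed it, 42 no longer passed it and 16 changed sign. A stricter filter of 5 CPM left 4 genes of the set called acutely. The replicate block is the day in the acute fits. For the change per day, genes of the set called numbered 5 without a filter, 4 with DESeq2, 0 with no replicate block and 0 with a 2-fold threshold, and all genes called numbered 1167 without a filter, 162 at 5 CPM, 910 with DESeq2 and 164 with no replicate block. Leaving out a day gave 0 to 4 genes of the set (0 without day 1, 4 without day 3) and 32 to 1592 of all genes. For the DMSO slope the count was 5 without a filter, 1 at 5 CPM and 0 at 2-fold, and 0 to 5 when a DMSO library was left out (0 without day 1, 1 without day 2, 4 without day 3, 5 without day 5), with 481 to 6577 of all genes. For the selpercatinib slope it was 5 without a filter, 4 with DESeq2 and 0 at 2-fold, with 3469 and 2987 of all genes without a filter and with DESeq2. Leaving out a selpercatinib library gave 0 (days 1 and 5) to 1 (days 2 and 3), and 29 to 861 of all genes. Between the resistant groups 2 genes of the set passed at 2-fold, and all genes called numbered 2745 without a filter, 2371 with DESeq2 and 586 with the 4 libraries alone. Leaving out a library there gave 1 (without selpercatinib-resistant replicate 1) to 10 genes of the set and 8 to 4461 of all genes.

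Some values changed sign, and the cause was not tested except that fewer samples entered where a day was left out. The acute log2 fold change of Tnc ranged from -0.11 (without day 5) to 0.43 when a day was left out. The change per day of Fbn1 was -0.009 with limma on log2(CPM + 1) and -0.17 (without day 1) to 0.33 when a day was left out, and that of Thbs1 was -0.03 (without day 5; -0.0017 without day 1) to 0.04. The DMSO slope, with 1 DMSO library left out, ran from -0.16 to 0.08 for Sparc, -0.15 to 0.04 for Thbs1, -0.10 to 0.19 for Tnc and -0.39 to 0.01 for Ccn1, each highest without day 5. The call for Ccn1 (-0.26 per day, adjusted p = 0.0252) was lost there (0.90), and the value of 0.19 for Tnc then passed (adjusted p = 0.0304), against -0.03 (adjusted p = 0.703) with all days. The selpercatinib slope of Spp1 was 0.00018 at 5 CPM, and with 1 selpercatinib library left out it ran from -0.10 to 0.24 for Spp1, -0.16 to 0.01 for Thbs1 and -0.22 to 0.04 for Fbn1, each highest without day 5. In selpercatinib-resistant cultures library totals gave 0.10 for Tgfbi, 0.05 for Fn1 and 0.09 for Fbln2, and with 1 library left out Tgfbi ran from -0.14 (without selpercatinib-resistant replicate 1) to 0.05 (without selpercatinib-resistant replicate 2).

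Parental and selpercatinib-resistant libraries share numbers, and same-numbered deviations correlated at -0.102. With 2 libraries a group this is a single value, which cannot decide whether same-numbered libraries share a batch. A replicate block on the shared number called 6 genes of the set and 11150 of all genes, against 5 and 10018 without the block. The crossed pairing, chosen after seeing the data, called 6 and 11529. Depth limits Postn, whose counts lie near the floor in acute DMSO and parental libraries. It also limits Thbs2 and, under acute selpercatinib, Tgfbi, whose lowest counts of 21 and 22 lie above the floor.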
